A study of Mus musculus with 20 samples.

Results

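The 10 exposed libraries of a mouse soleus study were described here as 2 sets, exposed replicates 1 to 4 and exposed replicates 5 to 10, out of 20 libraries in all. The split was drawn from measured levels of nerve genes in these libraries, which were high in replicates 1 to 4, with Cdh19, an adhesion molecule of the Schwann cell lineage, as its marker. The values that separate the sets are therefore a description and carry no test. The 10 control libraries were used only as the reference for direction.

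RNA came from the whole soleus, a slow and oxidative muscle, of 1 hind limb of C57BL/6J mice. The control group was sham-irradiated and was otherwise kept under similar conditions. The exposed group received hind-limb unloading for 14 days, ionizing radiation and a stress hormone given through the diet. All 10 exposed libraries carry the same labels, the 3 exposures were applied together, and the labels name no batch, litter or day that would tell replicates 1 to 4 from replicates 5 to 10. Each group had 10 mice and 10 libraries, so each library was taken as 1 mouse, and p-values below measure the spread between these samples. The labels, which call the exposed group space, give no age of the mice, radiation dose or name of the hormone.

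Schwann cells wrap the axons of peripheral nerves, and the myelinating ones make large amounts of membrane lipid and of the proteins of compact myelin, such as myelin basic protein (Mbp). A whole muscle also holds the nerve branches that enter it, fat cells, blood vessels, tendon ends and blood. The muscle fibres themselves make most of its RNA, largely for the contractile machinery and for mitochondria. In bulk RNA, a larger number of cells of a type and more RNA per cell of that type cannot be told apart.

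Levels are given as CPM, the read count of a gene scaled to a common library size, with library sizes adjusted by the trimmed mean of M-values (TMM). A gene was counted as separating the sets when its 4 values in replicates 1 to 4 lay all above, or all below, its 6 values in replicates 5 to 10. Folds come from the difference of mean log2 CPM with a prior count of 2, which understates the fold of low genes. Total counts were 26345395 to 38969271 in replicates 1 to 4, 24062159 to 39620873 in replicates 5 to 10 and 17336017 to 43424464 in the controls. The TMM factors did not overlap between the sets, at 1.05 to 1.16 in replicates 1 to 4 and 0.946 to 1.01 in replicates 5 to 10, with 0.931 to 1.04 in the controls. Mitochondrially encoded genes took 4.72 to 6.86% of counts in replicates 1 to 4, 6.09 to 7.82% in replicates 5 to 10 and 5.88 to 9.57% in the controls. Replicates 2 and 3 resembled each other more than any other pair within a group, by 2 measures. The scaled median absolute deviation of the log2 ratios between them was 0.145, against 0.153 to 0.307 in the other 89 pairs. Between them 22.6% of genes differed by more than the 95% limit of sampling noise, against 27.6 to 54.7%. By the mean chi-square against sampling noise they were not the closest pair, at 34.4 against 12 to 145. They differed beyond sampling noise and were counted as 2 samples.

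Of 16778 genes tested, 592 (3.53%) lay higher in all of replicates 1 to 4 than in all of replicates 5 to 10, and 703 (4.19%) lay lower. The higher genes differed by a median of 1.60-fold and the lower ones by a median of 1.18-fold. At a difference of at least 2-fold, 203 genes (1.21%) were higher and 9 (0.0536%) were lower. Without replicate 2 the last 2 counts were 255 and 12, and without replicate 3 they were 256 and 14; leaving out replicate 1, 4, 5 or 6 gave 18, 21, 14 or 28 lower genes. Just inside the limit of 2-fold stood Msmo1 (2.001-fold) and Scamp5 (2.002-fold), and just outside it Rims1 (1.999-fold) and Plxnb1 (1.997-fold). Among the lower genes, Mir133a-1 (2.07-fold) and Mylk4 (2.09-fold) stood just inside, and Aldh1b1 (1.73-fold) and Mir1a-1 (1.69-fold) just outside. The balance of directions rests on the scaling: with library size alone 1681 genes were higher and 64 lower, and the median difference of all genes moved from -0.0194 to 0.133 on the log2 scale. Medians of gene lists below are therefore also given relative to the median of all genes. A change of scaling shifts nearly all genes alike, so such relative medians hardly move, by construction. Their steadiness over the scalings is no check on the scaling.

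The lower genes were mostly abundant ones and the higher genes were not. Of the 703 lower genes, 421 stood in the highest of 5 equal classes by mean level over the exposed libraries, where 12.5% of genes were lower and 1.79% higher. In the lowest class 0.536% of genes were lower and 3.31% higher. Genes were also put in 5 classes by the summed length of their annotated exons, not by their span in the genome. The longest class had 6.26% higher genes and the shortest 1.38%, whereas lower genes made up 3.99 to 4.67% of every class.

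**Figure D1:**
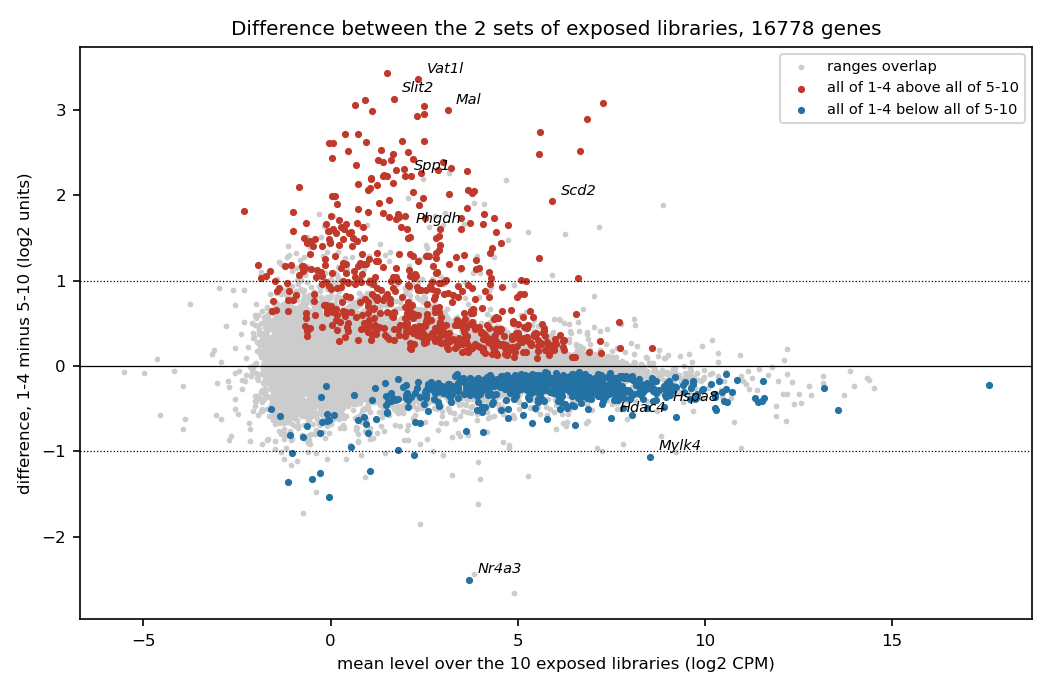
Difference of mean log2 CPM between exposed replicates 1 to 4 and 5 to 10 (y axis, log2 units) against the mean level over the 10 exposed libraries (x axis, log2 CPM) for 16778 genes; red points are the 592 genes higher and blue points the 703 genes lower in all of replicates 1 to 4, and dotted lines mark a 2-fold difference. The red genes reach past 3 log2 units at low and middle levels, while the blue genes sit at high levels and mostly within 1 log2 unit of 0.

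The marker behaved as the rule states. Cdh19 was at 15.9, 8.65, 7.04 and 15.7 CPM in replicates 1, 2, 3 and 4, at 3.11 to 5.26 CPM (median 3.98) in replicates 5 to 10 and at 1.83 to 3.16 CPM (median 2.63) in the controls. Replicates 5 to 10 overlapped the top of the control range, and replicates 1 to 4 stood above both. All 22 measured genes of the Schwann and myelin list were higher in replicates 1 to 4, with a median difference of 2.31 log2 units, or 2.33 relative to all genes under each of 4 scalings. This list contains the genes the split was drawn from, so its count restates the choice. Their summed level was 664 to 1832 CPM in replicates 1 to 4, 142 to 255 CPM in replicates 5 to 10 and 154 to 271 CPM in the controls. Gfra3, Gjb1 and Pmp2 of the list were too low to be tested.

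Mal, a proteolipid of the myelin membrane, was at 23.4, 10.2, 11.2 and 29.3 CPM in the 4 libraries, at 0.955 to 3.26 CPM (median 2.22) in replicates 5 to 10 and at 1.09 to 3.87 CPM (median 1.48) in the controls. Replicates 5 to 10 overlapped the controls, and all of replicates 1 to 4 stood above both. Within the list the lipid genes of myelin moved with the protein genes. Ugt8a, which makes the myelin lipid galactosylceramide, was at 14.0, 6.45, 5.596 and 21.8 CPM, against 0.702 to 2.08 CPM (median 1.26) in replicates 5 to 10. The smallest differences of the list were those of Erbb3, a receptor of the whole Schwann lineage, at 0.68 log2 units, and of Foxd3, a neural crest factor, at 0.99.

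Other nerve lists did not separate the sets in the same way. Of 9 measured genes of non-myelinating and repair Schwann cells 2 were higher, the sodium channel gene Scn7a and the growth factor gene Btc, and none was lower. Over all genes 3.53% were higher without overlap. In this list 8 genes had a positive difference and 1 a negative one (median 0.45 log2 units, 0.47 relative to all genes). Scn7a was at 60.1, 42.8, 42.4 and 68.4 CPM, at 19.9 to 32.7 CPM (median 26.9) in replicates 5 to 10 and at 17.1 to 29.5 CPM (median 21.4) in the controls. Jun, a factor of the repair state of Schwann cells that many other cells also make, went the other way. It was at 113, 83.4, 94.9 and 96.9 CPM against 93.1 to 238 CPM (median 137) in replicates 5 to 10, with overlapping ranges. None of 9 perineurial and endoneurial genes separated the sets, nor did any of the 3 measured axonal genes. The other 10 axonal symbols, among them Chat, Nefl and Tubb3, reached at most 9 counts in any library.

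Outside the 4 nerve lists, 183 genes were at least 2-fold higher in replicates 1 to 4 with no overlap. The largest differences among named genes were those of Cfap100, Vat1l, Slit2, Ankfn1 and Rimklb, between 8.36-fold and 10.8-fold. Slit2, a secreted guidance cue read by Robo receptors on axons, was at 7.94, 3.93, 4.59 and 11.6 CPM in replicates 1, 2, 3 and 4. It was at 0.491 to 0.883 CPM (median 0.679) in replicates 5 to 10 and at 0.178 to 1.34 CPM (median 0.567) in the controls, so that every value of replicates 1 to 4 lay above all of the other 16. Vat1l was at 12.9, 6.24, 6.96 and 18.5 CPM in replicates 1 to 4, at 0.518 to 1.84 CPM (median 0.870) in replicates 5 to 10 and at 0.232 to 2.09 CPM (median 0.830) in the controls. Cfap100, named for a part in cilia and flagella, was at 9.09, 4.11, 2.98 and 9.22 CPM, at 0.264 to 0.899 CPM (median 0.410) and at 0.296 to 0.775 CPM (median 0.447) in the same order. In all 3 genes replicates 5 to 10 lay within or near the control range.

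**Figure D2:**
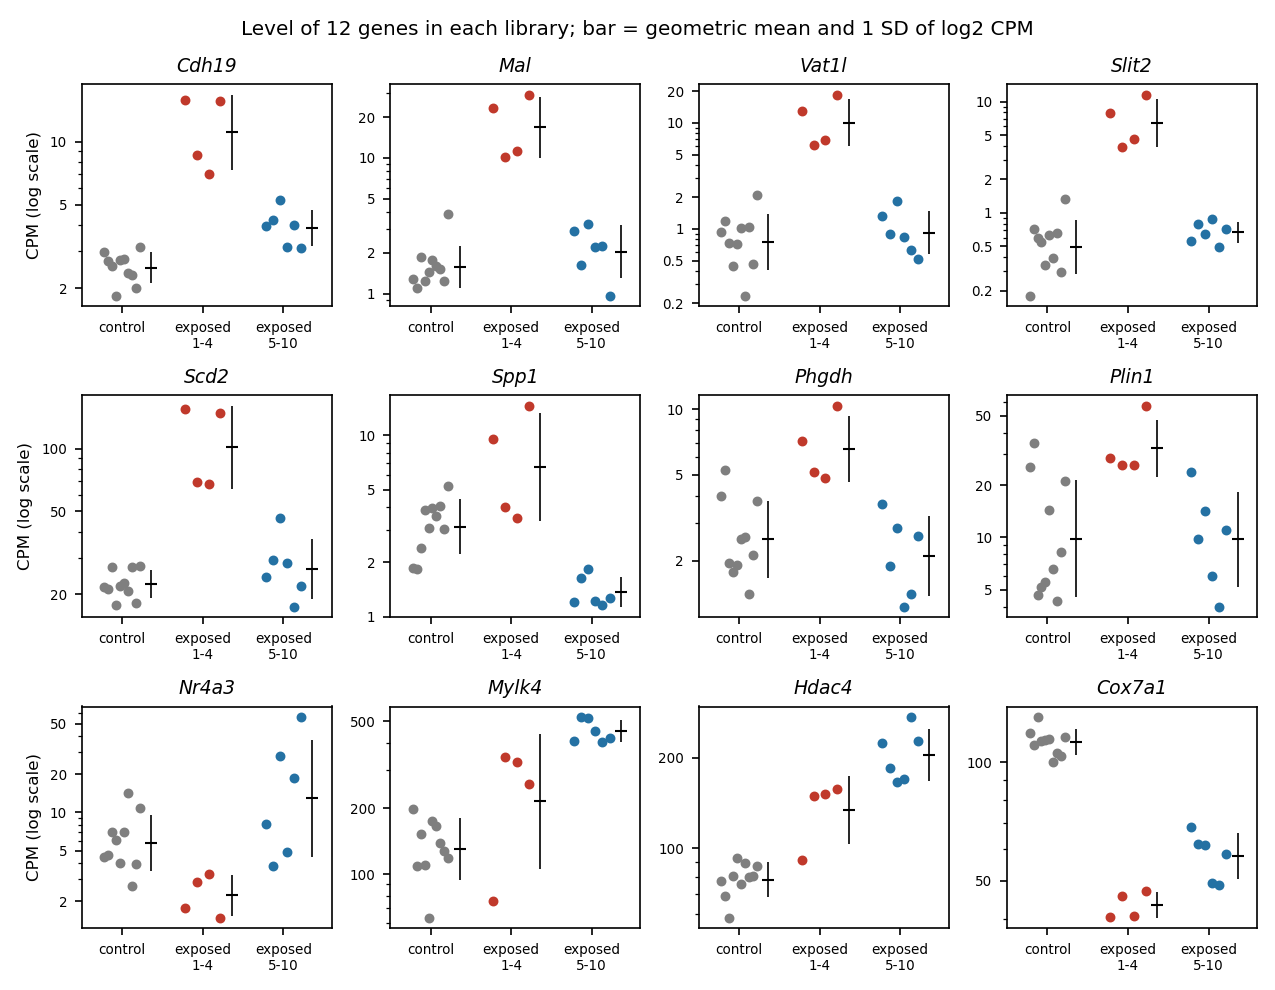
Level of 12 genes in each library (CPM, log scale) for the 10 controls (grey), exposed replicates 1 to 4 (red) and exposed replicates 5 to 10 (blue); the bar is the geometric mean with 1 SD of log2 CPM. Slit2, Vat1l and Mal of replicates 5 to 10 sit at or just above the controls and replicates 1 to 4 far above, Nr4a3 and Mylk4 are lower in replicates 1 to 4 than in 5 to 10, and Cox7a1 is lowest in replicates 1 to 4.

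Several of the other leading genes code for adhesion molecules. Cadm2, a cell adhesion molecule of synapses and axons, was at 7.19, 3.35, 3.55 and 4.50 CPM in replicates 1 to 4 and at 0.294 to 0.753 CPM (median 0.517) in replicates 5 to 10. Cdh1, which codes for E-cadherin, was at 3.92, 1.66, 1.85 and 6.43 CPM, against 0.151 to 0.775 CPM (median 0.410), and Hepacam, a glial adhesion molecule, at 3.95, 1.66, 1.90 and 3.37 CPM, against 0.133 to 0.561 CPM (median 0.326). The controls reached at most 1.13 CPM of Cadm2, 0.805 CPM of Cdh1 and 0.571 CPM of Hepacam. Dusp15, a phosphatase made by myelinating glia, was at 13.3, 7.03, 6.48 and 14.8 CPM, at 0.925 to 1.92 CPM (median 1.11) in replicates 5 to 10 and at 0.562 to 1.18 CPM (median 0.893) in the controls. The remaining genes of the 15 largest differences outside the nerve lists were Sept3, Fam178b, Mt3, Pex5l, Smco3 and Sorcs1, at 5.70-fold to 6.21-fold. Sorcs1 codes for a sorting receptor, and Sept3 is a septin best known from neurons.

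Kcna2, Nfasc, Kif1a and Ntrk3 were also among the 203 and were chosen after their values were seen. Kcna2, a potassium channel subunit found beside nodes, was at 44.3, 19.8, 19.5 and 32.0 CPM, against 6.21 to 9.51 CPM (median 8.91) in replicates 5 to 10. Nfasc, which codes for the neurofascins of nodes and paranodes, was at 19.4, 9.37, 10.2 and 17.3 CPM, against 1.91 to 3.19 CPM (median 2.79). The controls lay at 4.90 to 8.31 CPM (median 5.80) for Kcna2 and 1.28 to 2.95 CPM (median 1.80) for Nfasc, overlapping replicates 5 to 10. Kif1a, a motor of vesicle transport, was at 34.7, 14.8, 12.2 and 36.3 CPM, against 3.62 to 6.12 CPM (median 4.05) in replicates 5 to 10. Ntrk3, the receptor of neurotrophin-3, was at 5.52, 5.95, 4.27 and 7.41 CPM, against 1.23 to 2.15 CPM (median 1.72).

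Fat cells and myelinating glia both synthesize fatty acids and sterols. Of 27 measured genes of this synthesis 9 were higher in all of replicates 1 to 4, none was lower and 18 overlapped, with a median difference of 0.41 log2 units (0.43 to 0.44 relative to all genes over the scalings). Over all genes 3.53% were higher without overlap. Scd2, the stearoyl-CoA desaturase of nerve and brain, was at 154, 69.0, 67.5 and 148 CPM in replicates 1 to 4, at 17.3 to 46.2 CPM (median 26.3) in replicates 5 to 10 and at 17.8 to 27.4 CPM (median 21.8) in the controls. Elovl6, which lengthens long-chain fatty acids, was at 7.79, 2.49, 2.52 and 8.51 CPM, at 0.772 to 2.14 CPM (median 1.37) in replicates 5 to 10 and at 1.17 to 3.65 CPM (median 2.38) in the controls. Replicates 5 to 10 were low for this gene against the controls, and replicates 2 and 3 were within the control range.

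The sterol genes Sqle, which oxidizes squalene, and Msmo1 were 2.48-fold and 2.00-fold higher. Sqle was at 2.82, 1.98, 1.90 and 4.72 CPM, at 0.799 to 1.63 CPM (median 1.00) in replicates 5 to 10 and at 0.790 to 1.86 CPM (median 1.10) in the controls. Srebf1 and Srebf2, regulators of the pathway, and Hmgcs1, an early enzyme, also lay higher without overlap, by 0.26 to 0.49 log2 units. Fasn, fatty acid synthase, was at 461, 95.3, 108 and 338 CPM, at 32.3 to 112 CPM (median 77.4) in replicates 5 to 10 and at 29.3 to 134 CPM (median 59.0) in the controls, and the sets overlapped.

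Most fat cell markers had higher means in replicates 1 to 4, with wide spread in every group and overlap in 10 of 12. The adipocyte list had 12 measured members of 14, of which 10 were higher on average in replicates 1 to 4. Without overlap 2 were higher, where 3.53% of all genes were. The median difference of the list was 1.66 log2 units (1.68 relative to all genes). Per library the list's median against the control mean was 1.20 to 2.59 in replicates 1 to 4, -0.96 to 1.34 in replicates 5 to 10 and -0.99 to 1.69 in the controls. Plin1, the coat protein of the fat droplet, was at 28.7, 26.0, 26.2 and 57.4 CPM, at 3.97 to 23.7 CPM (median 10.4) in replicates 5 to 10 and at 4.28 to 34.8 CPM (median 7.41) in the controls. Replicates 1 to 4 thus overlapped the upper controls. Adipoq, the adipocyte hormone adiponectin, was at 28.04, 20.6, 19.1 and 51.6 CPM, at 2.46 to 19.2 CPM (median 7.24) and at 3.33 to 23.9 CPM (median 5.99) in the same order, with replicate 3 just under the highest value of replicates 5 to 10. Thrsp, a lipogenic gene, was at 19.5, 9.62, 9.99 and 24.3 CPM, against 3.99 to 8.44 CPM (median 6.49) in replicates 5 to 10.

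The summed level of the adipocyte list was 998.6 to 1356 CPM in replicates 1 to 4, 829 to 1306 CPM in replicates 5 to 10 and 608 to 1102 CPM in the controls, most of it from Plin4, which was at 654, 836, 798 and 759 CPM in replicates 1 to 4, at 702 to 1007.9 CPM (median 726) in replicates 5 to 10 and at 489 to 803 CPM (median 701) in the controls. Ucp1, the marker of brown fat, reached at most 2 counts in any library. The part of fat cells or Schwann cells in the lipid synthesis values was not tested.

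In some genes the control level lay above that of replicates 5 to 10. Of the 203 genes, the control mean lay below both sets in 110, between them in 85 and above both in 8. It was nearer to replicates 5 to 10 in 180, and all of replicates 1 to 4 exceeded all 10 controls in 149. Spp1, which codes for the secreted protein osteopontin, was at 9.54, 4.00, 3.51 and 14.5 CPM in replicates 1 to 4, at 1.16 to 1.84 CPM (median 1.246) in replicates 5 to 10 and at 1.83 to 5.27 CPM (median 3.32) in the controls. Replicates 2 and 3 lay within the control range, replicates 1 and 4 above it, and replicates 5 to 10 at or below its lower end.

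Lox, Reln, Sema3b and Prlr were picked after their values were seen, for low values in replicates 5 to 10. Lox, the enzyme that crosslinks collagen and elastin, was at 44.2, 21.3, 21.3 and 40.6 CPM, at 8.40 to 18.3 CPM (median 11.1) in replicates 5 to 10 and at 14.3 to 37.0 CPM (median 22.4) in the controls. Reln, a large secreted matrix protein, was at 47.5, 27.4, 29.3 and 47.8 CPM, at 11.8 to 16.8 CPM (median 13.2) and at 18.2 to 39.3 CPM (median 24.6). Replicates 5 to 10 were below every control for Reln and, except for replicate 5, for Lox, while replicates 1 and 4 were above every control for both genes. Sema3b, a secreted semaphorin, was at 27.6, 14.1, 14.6 and 34.8 CPM, at 7.51 to 12.1 CPM (median 9.58) in replicates 5 to 10 and at 16.3 to 25.7 CPM (median 20.0) in the controls. Replicates 2 and 3 were below every control and replicates 1 and 4 above. Prlr, the prolactin receptor, was at 1.27, 1.01, 0.913 and 2.39 CPM, at 0.199 to 0.695 CPM (median 0.498) and at 1.07 to 2.52 CPM (median 1.63), so that replicates 5 to 10 were below every control, replicates 2 and 3 just below them, and replicates 1 and 4 within their range.

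Of the amino acid genes, Phgdh, the first enzyme of serine synthesis, was 3.05-fold higher. It was at 7.17, 5.15, 4.80 and 10.4 CPM in replicates 1 to 4, at 1.22 to 3.65 CPM (median 2.24) in replicates 5 to 10 and at 1.40 to 5.22 CPM (median 2.31) in the controls, with replicates 2 and 3 inside the control range. Slc3a2, the heavy chain of amino acid exchangers, was at 26.8, 20.9, 22 and 25.0 CPM, at 15.9 to 20.3 CPM (median 19.2) in replicates 5 to 10 and at 14.1 to 17.3 CPM (median 16.2) in the controls. The interferon response list had 29 measured members, of which 5 were higher without overlap, none was lower, and 25 had a positive difference (median 0.18 log2 units, 0.20 relative to all genes). Over all genes 3.53% were higher without overlap. Irf7, a factor that drives interferon genes, was at 2.82, 3.32, 4.01 and 4.04 CPM, at 1.44 to 2.45 CPM (median 2.08) in replicates 5 to 10 and at 1.36 to 2.86 CPM (median 2.14) in the controls. B2m, the light chain of class I antigen molecules, was at 50.4, 49.99, 44.6 and 54.6 CPM, at 35.0 to 43.7 CPM (median 39.0) and at 40.9 to 57.8 CPM (median 48.3). For B2m, as for Stat2 and Irf9 of the same list, replicates 1 to 4 were inside the control range and replicates 5 to 10 in its lower part or below it.

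**Figure D3:**
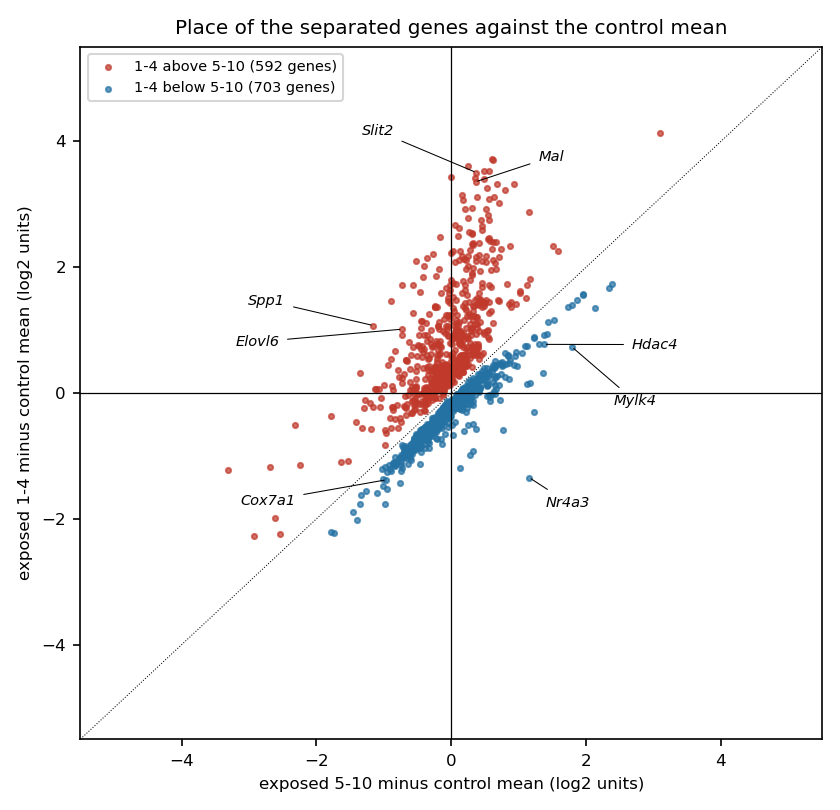
Mean log2 CPM minus the control mean in exposed replicates 5 to 10 (x axis) and in exposed replicates 1 to 4 (y axis), in log2 units, for the 592 genes higher (red) and the 703 genes lower (blue) in all of replicates 1 to 4; the dotted line marks equal values. Mal and Slit2 rise along the y axis near x = 0, Spp1 and Elovl6 lie left of 0 on x and above 0 on y, Nr4a3 lies right of 0 and below 0, and Cox7a1 is low in both sets.

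Few early response genes separated the sets. Of 25 measured members of the immediate early list, Egr2 and Nr4a2 were higher without overlap, Nr4a3 was lower and 22 overlapped (median difference -0.16 log2 units). Over all genes 3.53% lay higher and 4.19% lower without overlap, so these counts are near the share of all genes. Nr4a3 and Nr4a2 code for orphan nuclear receptors of one small family whose genes are switched on quickly by cAMP and calcium signals. Nr4a3 was at 1.77, 2.85, 3.27 and 1.47 CPM in replicates 1, 2, 3 and 4, at 3.80 to 56.7 CPM (median 13.5) in replicates 5 to 10 and at 2.65 to 14.1 CPM (median 5.33) in the controls. The 4 values lay below 9 of the 10 controls, and 3 of the values in replicates 5 to 10 lay above every control. The difference was 5.67-fold, the largest among the lower genes. Nr4a2 was at 5.92, 4.94, 4.18 and 4.32 CPM, at 1.61 to 3.58 CPM (median 2.17) in replicates 5 to 10 and at 0.998 to 3.81 CPM (median 1.69) in the controls, so that replicates 1 to 4 lay above all other libraries. Egr2, a myelin regulator that is also a member of the Schwann list, was at 4.34, 3.53, 4.06 and 6.98 CPM, at 0.546 to 0.979 CPM (median 0.907) and at 0.795 to 1.76 CPM (median 1.07).

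The 250 bases before the RefSeq start sites of both receptor genes are shown because the genes are close relatives that differed in opposite directions. The windows are chr4:48045055-48045304 on the plus strand for Nr4a3 and chr2:57124004-57124253 on the minus strand for Nr4a2, in RefSeq's GRCm38.p6, an older build than that of the counts. Capitals mark TGACG, the core of the cAMP response element, on either strand (CGTCA when read on the other), and no marked run overlaps another.
Nr4a3: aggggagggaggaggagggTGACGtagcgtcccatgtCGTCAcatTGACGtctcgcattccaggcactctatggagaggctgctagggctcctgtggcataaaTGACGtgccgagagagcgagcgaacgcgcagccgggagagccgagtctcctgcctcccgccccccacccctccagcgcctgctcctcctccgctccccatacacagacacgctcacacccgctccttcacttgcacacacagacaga
Nr4a2: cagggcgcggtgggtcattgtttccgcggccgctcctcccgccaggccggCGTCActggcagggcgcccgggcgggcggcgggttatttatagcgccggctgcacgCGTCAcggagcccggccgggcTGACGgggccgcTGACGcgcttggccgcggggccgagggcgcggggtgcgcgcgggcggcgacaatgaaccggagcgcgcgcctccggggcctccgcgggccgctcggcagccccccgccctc
Each window holds 4 such runs. Of 32851 windows of the same length before start sites, 17.8% hold at least 1 and 0.137% hold at least 4. A run of these letters is a description of the sequence and not a measured binding site.

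Atf3 and Ankrd1, picked after their values were seen, had large mean differences, of -2.66 and -1.85 log2 units, but did not separate the sets. Atf3, a stress-induced transcription factor, was at 4.14, 6.24, 6.84 and 2.30 CPM, at 2.73 to 135 CPM (median 36.4) in replicates 5 to 10 and at 9.90 to 34.1 CPM (median 11.5) in the controls. Ankrd1, a muscle stretch response gene, was at 1.70, 0.721, 1.01 and 0.521 CPM, at 0.807 to 33.4 CPM (median 1.94) in replicates 5 to 10 and at 11.0 to 31.1 CPM (median 15.7) in the controls. For Atf3 replicate 6 lay among replicates 1 to 4 and the other 5 above them; for Ankrd1 replicates 5 and 7 were high and the other 4 near replicates 1 to 4.

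Of the 9 genes at least 2-fold lower, 5 have provisional names, and the others are Nr4a3, Mylk4, Mir133a-1 and Mir378a. Mylk4, a myosin light chain kinase of striated muscle, was at 75.7, 344, 324 and 257 CPM in replicates 1 to 4, at 400.4 to 526 CPM (median 436) in replicates 5 to 10 and at 63.0 to 199 CPM (median 133) in the controls. Replicate 1 was within the control range while the other 9 exposed libraries were above it. Without replicate 1 the difference of Mylk4 moved from -1.06 to -0.56 log2 units. Ifrd1, a gene induced in stressed and regenerating muscle, was at 60.3, 64.9, 65.2 and 66.1 CPM, at 68.3 to 179 CPM (median 97.7) in replicates 5 to 10 and at 89.0 to 118 CPM (median 97.0) in the controls, so that replicates 1 to 4 were below all controls.

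Mir1a-1 and Mir133a-1, muscle microRNA rows of the count table, were named for being among the 5 largest lower differences, so their direction restates the rule. Of 194 tested genes annotated as small RNAs of any kind, 7 (3.61%) were lower and 1 (0.515%) higher without overlap. Over all genes 4.19% were lower and 3.53% higher, so small RNAs were not lower more often than other genes. The median difference of the small RNA class was -0.204 log2 units. A microRNA row counts reads over the hairpin locus, in libraries made from total RNA after removal of ribosomal RNA. It is not a measurement of the mature microRNA. Mir1a-1 was at 9.19, 7.64, 8.89 and 8.82 CPM, at 10.7 to 17.3 CPM (median 15.3) in replicates 5 to 10 and at 7.72 to 15.2 CPM (median 12.8) in the controls. Mir133a-1 was at 2.07, 3.14, 2.71 and 3.43 CPM, at 4.44 to 7.64 CPM (median 5.79) and at 1.46 to 3.72 CPM (median 2.18). The 5p arm that RefSeq (GRCm38.p6) lists at the Mir1a-1 hairpin, chr2:180389057-180389079 on the plus strand, is shown for identity, with its seed (bases 2 to 8) in capitals. The 3p arm is not shown, and the capitals are the seed of the 5p arm alone.
mmu-miR-1a-1-5p: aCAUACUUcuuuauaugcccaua

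Hdac4, a deacetylase that moves to the nucleus of denervated and inactive muscle, stood above the controls in most exposed libraries, and less so in replicates 1 to 4. It was at 91.0, 149, 151 and 158 CPM, at 166 to 275 CPM (median 204) in replicates 5 to 10 and at 58.3 to 92.8 CPM (median 80.2) in the controls. Replicate 1 was again the lowest, within the control range, and the other 9 exposed libraries were above it. Trim7 was at 33.0, 47.2, 46.5 and 39.5 CPM, at 51.5 to 83.7 CPM (median 62.6) in replicates 5 to 10 and at 33.0 to 52.0 CPM (median 42.2) in the controls. Here replicates 1 to 4 were at the control level and only replicates 5 to 10 reached past it. Ddit3, the stress factor CHOP, was at 3.05, 3.60, 3.10 and 3.89 CPM, and at 4.03 to 10.2 CPM (median 4.75) in replicates 5 to 10, with 6.62 to 15.8 CPM (median 8.86) in the controls. Replicates 1 to 4 were below every control, as were replicates 5 to 9, and replicate 10 was within the control range.

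Of 61 measured genes of oxidative phosphorylation coded in the nucleus, 42 were lower in all of replicates 1 to 4 and none was higher. Over all genes 4.19% were lower and 3.53% higher, and 12.5% were lower in the highest class by level. All 61 genes of the list had a negative difference. Their median difference was -0.28 log2 units (-0.26 relative to all genes over the scalings). The list's median against the control mean was -0.82 to -0.72 in replicates 1 to 4 and -0.60 to -0.41 in replicates 5 to 10, with no overlap. Cox7a1, the muscle form of a cytochrome c oxidase subunit, was at 40.4, 45.6, 40.6 and 46.9 CPM, at 48.6 to 68.6 CPM (median 60.1) in replicates 5 to 10 and at 100.4 to 131 CPM (median 114) in the controls. Cycs, cytochrome c, was at 56.0, 54.2, 54.1 and 61.5 CPM, at 70.7 to 82.2 CPM (median 73.4) and at 110.3 to 144 CPM (median 125). Ndufs1, a core subunit of complex I, was at 199, 214, 223 and 219 CPM, at 257 to 318 CPM (median 277) and at 371 to 402 CPM (median 381). For these genes both exposed sets were below every control, and replicates 1 to 4 were farther below. With library size alone only 64 of all genes were lower without overlap. Counts of lower genes in this list and the following ones were made under the main scaling only.

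Without overlap, 4.19% of all genes were lower and 3.53% higher. The tricarboxylic acid cycle list had 15 lower and no higher genes among 20. The list of fatty acid uptake and oxidation had 9 lower and no higher genes among 28. Their median differences were -0.29 and -0.24 log2 units (-0.27, and -0.22 to -0.21, relative to all genes over the scalings). Pdha1, a subunit of pyruvate dehydrogenase, was at 394, 423, 447 and 436 CPM, at 463 to 623 CPM (median 549.6) in replicates 5 to 10 and at 737 to 835 CPM (median 777) in the controls. Acaa2, the last enzyme of the mitochondrial beta-oxidation spiral, was at 74.5, 73.7, 75.9 and 73.5 CPM, at 85.4 to 111 CPM (median 94.3) and at 176 to 219.9 CPM (median 186). Both genes kept the order controls, replicates 5 to 10, replicates 1 to 4 without overlap. The 12 measured mitochondrially encoded mRNAs all had a negative difference (median -0.44), but none separated the sets, and their summed level was 30430 to 49190 CPM in replicates 1 to 4 and 44900 to 58900 CPM in replicates 5 to 10.

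Among 30 glycolytic and glycogen genes, 19 were called higher and 9 lower in the exposed group over all libraries, where 28.7% and 28.9% of all genes were called, and 20 and 9 without replicates 1 to 4. Between the sets 13 were lower in replicates 1 to 4, where 4.19% of all genes were, and none was higher (median difference -0.30 log2 units, -0.28 relative to all genes). Eno3, the muscle enolase, was at 802, 1001.6, 1067 and 1122 CPM, at 1228 to 1519 CPM (median 1425) in replicates 5 to 10 and at 566 to 855 CPM (median 743) in the controls. Pfkm, muscle phosphofructokinase, was at 994, 1354, 1411 and 1393 CPM, at 1606 to 1825 CPM (median 1694) and at 1032 to 1298 CPM (median 1189). Replicate 1 was the lowest for both, just below the range of the controls for Pfkm and inside it for Eno3. Phka1, the muscle regulatory subunit of phosphorylase kinase, was at 163, 217, 218 and 224 CPM, at 281 to 336 CPM (median 306) in replicates 5 to 10 and at 171 to 226 CPM (median 180.0) in the controls.

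Fast fibre genes had this direction too, while slow fibre genes did not separate the sets. All 17 fast fibre genes had a negative difference and 4 were lower without overlap: Tnnc2, Myl1, Tnnt3 and Myoz1 (median of the list -0.31 log2 units, -0.29 to -0.28 relative to all genes). Over all genes 4.19% were lower without overlap. Tnnc2, the calcium-binding troponin of fast fibres, was at 479, 489.8, 325 and 538 CPM, at 607 to 802 CPM (median 659.6) in replicates 5 to 10 and at 357 to 496 CPM (median 429) in the controls. Replicates 1 to 4 spanned the control range and replicates 5 to 10 lay above it. Myoz1, a Z-disc protein of fast fibres, was at 650.4, 734, 752 and 796 CPM, at 855 to 1093 CPM (median 916) and at 199 to 307 CPM (median 262), so that it was above every control in all 10 exposed libraries. Myh4, the fastest myosin heavy chain, was at 8006, 13206, 12334 and 13722 CPM, at 13338 to 15686 CPM (median 14828) in replicates 5 to 10 and at 19.5 to 1489.8 CPM (median 530.1) in the controls, with overlap between the sets. None of 17 slow fibre genes separated the sets (median difference 0.12). Myh7, the slow myosin heavy chain, was at 4337, 6262, 6181 and 2877 CPM, at 2353 to 7271 CPM (median 3733) and at 8134 to 11971 CPM (median 9892).

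Of 26 chaperone genes, 20 were called lower in the exposed group by edgeR at an adjusted p under 0.05 over all 20 libraries and 1 higher, where 28.9% and 28.7% of all genes were called. Between the sets 6 of the 26 were lower in replicates 1 to 4 without overlap, none was higher, 20 overlapped and 24 had a negative difference (median -0.22 log2 units, -0.20 relative to all genes). Over all genes 4.19% were lower without overlap, and 12.5% in the highest class by level. Hspa8, the constitutive HSP70, was at 405, 388, 382 and 373 CPM, at 455 to 678 CPM (median 528) in replicates 5 to 10 and at 638 to 821 CPM (median 706) in the controls. Dnaja4, a co-chaperone of HSP70, was at 52.2, 70.5, 69.6 and 65.7 CPM, at 72.3 to 108 CPM (median 91.3) and at 172 to 233 CPM (median 187). The inducible Hspa1a was at 8.19, 7.06, 7.78 and 4.93 CPM, at 5.56 to 52.4 CPM (median 14.8) and at 16.8 to 34.8 CPM (median 23.3), with overlap between the sets. Among antioxidant genes, the mitochondrial Sod2 was at 204, 232, 234 and 242 CPM, against 278 to 307 CPM (median 285), whereas the secreted Sod3 was higher, at 9.31, 8.00, 7.13 and 11.0 CPM, against 4.62 to 6.97 CPM (median 5.63) in replicates 5 to 10.

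**Figure D4:**
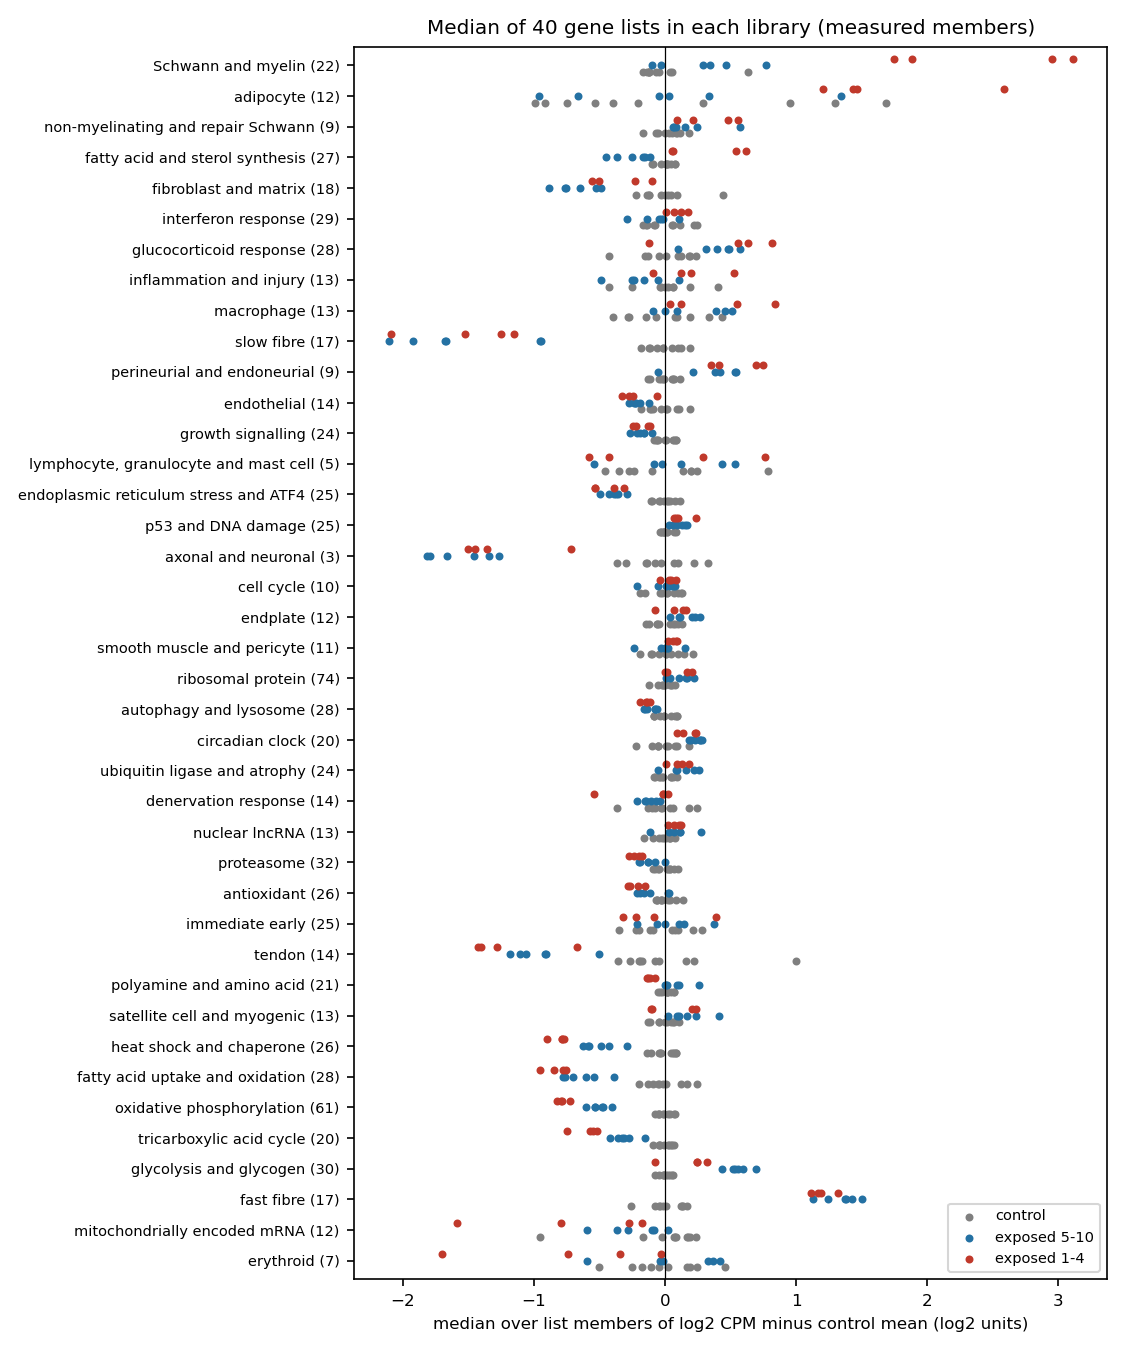
Median over the measured members of 40 gene lists (number of members in brackets) of log2 CPM minus the control mean, in log2 units, one point per library, for controls (grey), exposed replicates 5 to 10 (blue) and exposed replicates 1 to 4 (red); lists are ordered by their median difference. Schwann and sterol synthesis medians of replicates 1 to 4 lie right of all of 5 to 10, and those of oxidative phosphorylation, the tricarboxylic acid cycle, glycolysis and heat shock lie left of them.

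Few markers of the other cell types of the muscle separated the sets. No gene of the lists for tendon (14 measured), fibroblast and matrix (18), endothelial cells (14), macrophages (13), lymphocytes, granulocytes and mast cells (5) or endplates (12) separated them. Fibroblast and matrix genes had a median difference of 0.25 log2 units, with 15 of 18 positive and a summed level of 1073 to 1579 CPM in replicates 1 to 4, 953 to 1257 CPM in replicates 5 to 10 and 1455 to 3016 CPM in the controls. Mcam of the smooth muscle list was higher without overlap and Myf5 of the satellite cell list was lower, each by 1.44-fold or less. All 7 genes of red blood cells had a negative difference (median -0.84) and overlapped. Hbb-bs, a beta globin gene, was at 8.54, 14.6, 17.0 and 27.0 CPM, at 18.6 to 36.8 CPM (median 28.9) in replicates 5 to 10 and at 21.4 to 39.2 CPM (median 28.5) in the controls. The summed level of the red cell list was 38.8 to 67.9 CPM in replicates 1 to 4 and 62.4 to 84.8 CPM in replicates 5 to 10, and the part of blood content in the other differences was not tested. Ribosomal protein genes had 1 higher and 1 lower member among 74 (median difference -0.035, and 0.12 with library size alone), and none of 20 clock genes separated the sets (median -0.092, and 0.064 with library size alone). Glucocorticoid response genes had 1 higher member, Mertk, among 28, with medians per library of -0.12 to 0.82 in replicates 1 to 4 and 0.10 to 0.57 in replicates 5 to 10.

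Replicates 1 to 4 were not alike among themselves. Among the 203 genes the mean of replicates 1 and 4 was a median of 1.78 times that of replicates 2 and 3, and it was the larger in 195. Replicates 1 and 4 were the highest pair in 167, replicate 4 was the highest in 130 and replicate 1 in 64. Of the 8 exceptions Nrcam, an adhesion molecule of nodes, had the lowest ratio, at 0.592, and the others ran from 0.740 for Odf3l2 to 0.866 for Aif1l. Of replicates 5 to 10, replicate 7 was nearest to the higher set in 88 of the 203 genes and replicate 5 in 51. For the 703 lower genes replicate 1 was the lowest in 358, and no single pair led as often.

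A principal component analysis of the 10 exposed libraries gave the same ordering, but it rests on the same values and is no separate support. The sign of the first component was set so that the mean of replicates 1 to 4 is positive. The first component, 30.4% of the variance, placed replicates 1 and 4 at 37.6 and 36.1, replicates 2 and 3 at 13.5 and 13.9, and replicates 5 to 10 between -26.3 and -6.88. The second component, 12.8% of the variance, placed replicates 2 and 3 together at its low end. Without the 1295 genes that separate the sets, the first component held 21.4% of the variance, with replicates 1 to 4 at 4.68 to 30.8 and replicates 5 to 10 at -22.5 to 3.15.

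**Figure D5:**
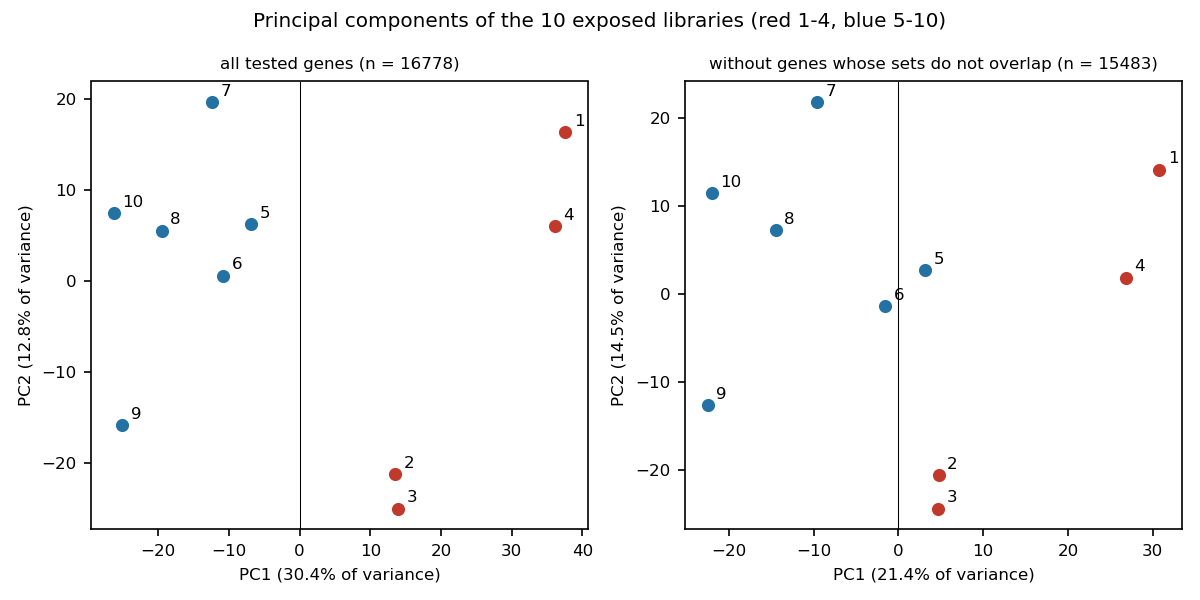
First and second principal components of log2 CPM of the 10 exposed libraries, numbered by replicate (red 1 to 4, blue 5 to 10), over all 16778 tested genes (left) and over the 15483 genes whose sets overlap (right). Replicates 1 and 4 lie farthest to the right in both panels, replicates 2 and 3 lie close together at the bottom, and in the right panel replicate 5 comes near to replicates 2 and 3 on the first component.

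The labelled comparison, exposed against control over all 20 libraries, asks which genes the exposures changed as a group. By edgeR's quasi-likelihood test with Benjamini-Hochberg adjustment, 4813 of 16778 genes (28.7%) were higher and 4850 (28.9%) lower in the exposed group at an adjusted p under 0.05. With library size alone the counts were 5946 and 3756. Of the 203 genes, 122 were called higher and 8 lower. Leaving out replicates 1 to 4 gave 31 higher and 36 lower calls among the same 203 genes, where 25.5% and 26.1% of all genes were called. In either direction 57.6% of genes were called over all libraries, 51.6% without replicates 1 to 4 and 51.8% without replicates 5 to 10. Since these 4 libraries were chosen on nerve gene levels, the second fit is no independent test, and it shows only what the calls rest on. Among the 592 higher genes, calls moved from 267 higher and 78 lower to 104 higher and 162 lower, and among the 703 lower genes from 152 higher and 377 lower to 209 higher and 303 lower.

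For Slit2 the log2 fold change of exposed over control was 2.47 (edgeR adjusted p = 0.00265) over all libraries and 0.22 (adjusted p = 0.552) without replicates 1 to 4. Vat1l moved from 2.49 (adjusted p = 0.00358) to 0.18 (0.697) and Cadm2 from 2.16 (adjusted p = 0.00424) to 0.09 (0.839). Their calls over all libraries were thus lost without these 4 samples. Cdh19 kept its call, at 1.48 (adjusted p = 3.42e-04) with them and 0.64 (2.11e-04) without them, and so did Sept3, at 2.47 (adjusted p = 5.14e-04) and 0.76 (0.00178). Kcna2 and Nfasc were likewise called in both fits.

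Other genes had no call over all libraries and were called when one of the sets was left out. Spp1 had a log2 fold change of 0.30 (edgeR adjusted p = 0.593) over all libraries and -1.22 (adjusted p = 9.63e-05) without replicates 1 to 4. Elovl6 went from 0.34 (adjusted p = 0.4933) to -0.76 (0.0212), Lox from -0.19 (0.602) to -0.93 (0.00179) and Reln from -0.13 (0.696) to -0.91 (3.55e-05). Without replicates 5 to 10 the values were 1.26 (edgeR adjusted p = 0.00877) for Spp1, 1.16 (0.0135) for Elovl6, 0.49 (0.127) for Lox and 0.56 (0.0243) for Reln, all of the opposite sign. Lox and Reln were picked for their low values in replicates 5 to 10, so their calls restate that choice. Spp1, Elovl6 and Nr4a3 were named because their sets do not overlap. Their shifts in opposite directions when either set is left out follow from that choice and are no test. Nr4a3 went from 0.99 (adjusted p = 0.180) over all libraries to 1.63 (0.0187) without replicates 1 to 4 and to -1.47 (0.0133) without replicates 5 to 10.

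Cox7a1, Myoz1, Hdac4 and Mylk4 were called in the same direction with and without replicates 1 to 4. Cox7a1 had a log2 fold change of -1.11 (edgeR adjusted p = 3.12e-10) over all libraries and -0.95 (adjusted p = 6.88e-10) without replicates 1 to 4. Of 61 oxidative phosphorylation genes, 61 were called lower with them and 58 without, where 28.9% and 26.1% of all genes were called lower. Myoz1 was at 1.72 (adjusted p = 2.22e-13) and 1.86 (7.21e-13), Hdac4 at 1.18 (7.47e-07) and 1.40 (1.84e-08), and Mylk4 at 1.45 (9.82e-05) and 1.75 (1.24e-06). The fast fibre gene Myl1 had no call in either fit (edgeR adjusted p = 0.197 and 0.768) and was lower without replicates 5 to 10 (-0.50, adjusted p = 4.30e-05). Tnnc2, Tnnt3, Pfkm and Phka1 were called higher in both fits and had no call without replicates 5 to 10 (edgeR adjusted p = 0.538, 0.0986, 0.161 and 0.164). These genes and Myl1 were named because all of replicates 1 to 4 lay below all of replicates 5 to 10. Their shifts without replicates 5 to 10 follow from that choice and are no test. In the fatty acid and sterol synthesis list of 27 measured genes, 8 were called higher and 5 lower over all libraries. The shares over all genes were 28.7% and 28.9%. Without replicates 1 to 4 the list had 5 higher and 11 lower calls, where 25.5% and 26.1% of all genes were called. The Schwann and myelin list went from 20 higher and no lower calls to 7 higher and 3 lower ones. Whether any of these changes differs between the sets was not tested, because the sets were chosen on measured levels.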

How the data were processed

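Total RNA of the soleus was sequenced as paired ends after ribosomal RNA removal, from 90 ng of total RNA per library, per the labels' protocols. The authors deposited 1 table of read counts per gene, not normalized, for the 20 libraries. Per the submitters' processing notes, MultiQC 1.15, Subread, featureCounts 1.5.1, edgeR and the build GRCm39 were used; no source used here gives their roles, the annotation, strandedness or how multiply matching reads were counted, so overlapping, antisense and near-identical genes could share reads. Of 56941 identifiers, 51948 (97.6% of counts) were named by matching them to GENCODE M21, and where a symbol repeated, the row with the most counts kept it.

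Genes were kept by filterByExpr in edgeR 4.0.16 (R 4.3.3; minimum count 10, minimum total 15), libraries were scaled by TMM over all 20, and log2 CPM used a prior count of 2. Exposed and control were compared with edgeR's quasi-likelihood test (robust) at a Benjamini-Hochberg adjusted p of 0.05, without a replicate block; the procedure was tested on simulated data first. The members, the gene lists and the naming rule were chosen with earlier results of these data known. Named genes had a mean of at least 1 CPM over the exposed libraries and no provisional symbol: Cdh19, the 15 largest differences in each direction outside the nerve lists, the 5 largest of any kind in each direction, and up to 4 separating members of each list; here separating meant no overlap, without the 2-fold limit. Some genes that meet the rule are not reported here. Alternatives were other scalings, filters, prior counts and size limits, each library left out, either set left out, a replicate block, limma 3.58.1 (voom) and DESeq2 1.42.0.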

Additional observations from a re-analysis of the deposited data

Results flagged for a closer look

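In 393 groups of 4 to 10 libraries, over the named genes and list medians, 20 held a library that stood apart from the rest of its group, where chance flags about 1 in 20. Exposed replicate 1 was low for Kcnc1 (18.9 CPM, others of replicates 1 to 4 at 32.95 to 36.68), Hdac4 (90.99, others 148.9 to 157.6), Phka1 (163.4, others 217.1 to 223.8), Pfkm (993.9, others 1354 to 1411) and Fbxo40 (227.5, others 282.9 to 295.8). Exposed replicate 4 was high for Plin1 (57.35, others 26.02 to 28.66) and Mertk (18.83, others 12.88 to 13.74), and low for the medians of the denervation list (-0.5399 log2 units, others -0.0165 to 0.02497) and the heat shock list (-0.8964, others -0.7875 to -0.7717). Exposed replicate 2 was low for Eci1 (51.83, others 59.04 to 60.4).

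Among replicates 5 to 10, replicate 7 was high for Sept3 (3.046 CPM, others 1.299 to 1.597) and for the repair Schwann median (0.5707 log2 units, others 0.06384 to 0.2486), and replicate 9 was apart for Got1 (230.4 CPM, others 253.8 to 264.5). Among the controls, replicate 10 was high for Mal (3.874 CPM, others 1.091 to 1.864) and the Schwann median (0.6319 log2 units, others -0.1667 to 0.05756). Control replicate 5 was low for Mylk4 (62.99 CPM, others 108.7 to 198.7) and Myoz1 (199.3, others 246 to 306.7). Control replicate 6 was high for the tendon median (1.002 log2 units, others -0.3592 to 0.2245) and the fibroblast median (0.4411, others -0.2212 to 0.08882), and control replicate 9 was low for the median of mitochondrially encoded mRNAs (-0.9534, others -0.1666 to 0.2408).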

How the results depend on the processing

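Most values moved little under the alternatives. Of 719 recomputed medians of gene lists, 693 moved by less than the spread between libraries, as did 1600 of 1633 differences of named genes. A median near 0 could still change sign within that spread. That of macrophage genes ran from -0.0177 to 0.288 with each exposed library left out in turn. Of 2811 tests of named genes, 2645 kept their call, where a change of sign without any call was counted as kept. With library size alone, the genes with no overlap numbered 1681 higher and 64 lower. List medians (log2 units) were then 0.211 for endothelial, 0.124 for smooth muscle, 0.128 for endplate, -0.15 for fast fibre, -0.147 for glycolysis, -0.127 for oxidative phosphorylation, -0.138 for the tricarboxylic acid cycle, -0.0803 for fatty acid oxidation, -0.0668 for heat shock and -0.0358 for polyamine and amino acid genes. They were 0.146 for p53, 0.063 for ubiquitin ligase, 0.149 for endoplasmic reticulum stress, 0.337 for interferon, 0.12 for ribosomal protein, 0.126 for cell cycle, 0.0534 for nuclear lncRNA and 0.193 for growth signalling genes. They were 0.037 for proteasome, 0.0791 for autophagy, 0.00875 for antioxidant and 0.0636 for clock genes, and the differences of Psmd13 (0.00176) and Psmd12 (0.0192) turned positive. In all, 14 of 40 list medians changed sign under that scaling, which leaves out the TMM factors that differ between the sets; 10 of these were already within the spread between libraries. Without a filter on low counts 352 genes were at least 2-fold higher and 22 lower, at a limit of 1.5-fold 337 and 33, and with overlap allowed 33 lower. A filter of 1 CPM in 4 libraries gave the axonal list a median of 0.477; the cause was not tested.

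Leaving out each exposed library in turn gave 189 to 256 genes at least 2-fold higher and 8 to 28 lower, and 670 to 891 higher and 822 to 1032 lower with no overlap, since fewer libraries overlap less often. The smooth muscle median ran from -0.0471 to 0.12, that of growth signalling from -0.0263 to 0.0913, and the difference of Mylk4 from -1.28 to -0.555. Without exposed replicates 1 to 4, the exposed over control log2 fold change was -0.759 for Elovl6, -0.427 for Egr2 and -1.22 for Spp1. Without replicates 5 to 10 it was -1.47 for Nr4a3, -0.0169 for Trim7, -0.039 for Pgk1 and -0.125 for Rpl22. Both groups number their replicates alike, but same-numbered libraries correlated at -0.132 to 0.0982 and none best with its own number. No pairing by number was thus seen, though such correlations cannot exclude one. With a replicate block the test called 4654 genes higher and 4816 lower. DESeq2 called 5055 and 4739, limma-voom 4758 and 4943.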
